A study of Mus musculus with 12 samples.

Results

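Cholecystokinin (CCK), vasoactive intestinal peptide (VIP), pituitary adenylate cyclase-activating polypeptide (PACAP) and gastrin-releasing peptide (GRP) form 4 neuropeptide systems, described here through 9 genes of the 24531 that were counted. The genes were taken by symbol: the peptide genes Cck, Vip, Adcyap1 (which encodes PACAP) and Grp, and the receptor genes Cckbr, Vipr1, Vipr2, Adcyap1r1 and Grpr. RNA was sequenced from the amygdala of male wild-type mice of the strains 129S1/SvImJ (S1) and C57BL/6 (B6), with its basolateral part (BLA) and its central part (CeA) sequenced apart from each other. Mice were naive, had been fear conditioned (FC), or had gone through fear extinction (Ext), and all 12 combinations of strain, region and condition were sequenced once. The series looked for genes linked to poor fear extinction in S1 mice, and its design text calls the second region CEm. How many mice a library held is not in the labels. The groups therefore have no replicates, and a p-value below measures the spread of these libraries around an additive model, not the spread between mice. The mice carried no transgene, and no other agent is named.

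Neuropeptides are cut from longer precursors, stored in dense-core vesicles and released on strong firing, and they act through G protein-coupled receptors on nearby cells. In the cortex and BLA, CCK is made both by a class of basket interneurons and by excitatory cells, and its main brain receptor, CCKBR, couples to Gq and calcium release. VIP marks interneurons that mainly inhibit other interneurons. PACAP and VIP are related peptides: the PACAP receptor encoded by Adcyap1r1 prefers PACAP, while VPAC1 (Vipr1) and VPAC2 (Vipr2) bind both, and all 3 raise cyclic AMP through Gs. GRP is made by excitatory cells of the lateral amygdala in mice, and its Gq-coupled receptor sits on interneurons there.

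The PACAP receptor transcript comes in forms that differ by a cassette exon in the part of the coding sequence for the third intracellular loop, the loop that meets G proteins. The exon is exon 14 of 17 in the transcript NM_007407, lies at chr6:55491227-55491310 on the plus strand (GRCm38), and has 84 bases, or 28 codons with no base left over, so that it can be skipped without a shift of frame. It is shown because the deposited counts separate both forms. Capitals mark the cassette exon, and the 15 bases in lower case on each side belong to the neighbouring exons, which are joined directly in the transcript NM_001025372.
Adcyap1r1 cassette exon: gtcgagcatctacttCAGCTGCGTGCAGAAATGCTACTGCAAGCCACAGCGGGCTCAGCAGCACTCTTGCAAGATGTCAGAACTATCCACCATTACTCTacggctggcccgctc

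The stretches upstream of 3 of the 4 peptide genes with RNA higher in BLA are shown, those of Cck, Vip and Adcyap1. The remaining peptide gene, Grp, was also higher in BLA but was left out of the search. The cyclic AMP response element, a DNA site for the factor CREB, has the full form TGACGTCA, and the strings TGACGTC (which the full form contains) and TGCGTCA were searched on both strands of the 250 bases before each start site in RefSeq (GRCm38.p6). In 8 members searched, TGACGTC stood in the windows of 3 genes, Vip, Adcyap1 and Grpr, and TGCGTCA in that of 1, Cck. The full form was searched as well and stood in no member's window. Of all 32851 windows of this length, 2.78% held TGACGTC, 1.75% held TGCGTCA and 1.55% held the full form. Such a match describes letters and is not a measured site. Capitals mark the match, which lies 49 to 43 bases before the start in Cck, 79 to 73 bases in Vip, and 91 to 85 bases before the upstream one of 2 Adcyap1 starts. The main Adcyap1 transcript, NM_009625, starts further downstream at position 93199168, and the same match lies 242 to 236 bases before that start. The stretches are chr9:121495695-121495944 (minus strand), chr10:5638968-5639217 (plus strand) and chr17:93198918-93199016 (plus strand).
Cck upstream: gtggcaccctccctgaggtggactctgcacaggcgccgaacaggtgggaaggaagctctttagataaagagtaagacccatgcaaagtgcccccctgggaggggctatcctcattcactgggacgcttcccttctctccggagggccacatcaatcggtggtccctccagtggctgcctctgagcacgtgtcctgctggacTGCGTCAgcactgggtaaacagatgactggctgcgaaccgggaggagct
Vip upstream: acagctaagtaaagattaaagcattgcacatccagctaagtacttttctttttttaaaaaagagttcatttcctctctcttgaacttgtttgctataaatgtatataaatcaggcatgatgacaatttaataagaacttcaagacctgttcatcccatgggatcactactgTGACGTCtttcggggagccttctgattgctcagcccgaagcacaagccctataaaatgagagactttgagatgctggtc
Adcyap1 upstream: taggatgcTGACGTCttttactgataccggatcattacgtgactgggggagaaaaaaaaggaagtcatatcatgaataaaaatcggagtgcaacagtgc

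The libraries held 42224899 to 61695302 counts and 17147 to 17630 detected genes, and levels are given in CPM, which are counts scaled by library size. A floor of 3 counts lay at 0.0486 to 0.071 CPM. Markers of both labelled regions were present: all 10 markers of BLA excitatory neurons were higher in BLA, and all 10 markers of the CeA were lower in BLA than in CeA. The CeA libraries also held the 10 listed striatal markers at a summed 3010 to 4126 CPM, against 494 to 923 CPM in BLA, and 9 of them passed the test. The excitatory markers summed to 2559 to 2919 CPM in BLA and to 107 to 358 CPM in CeA. Within CeA, the S1 FC library (242 CPM) and the B6 naive library (358 CPM) stood above the other 4, which held 107 to 146 CPM. Fits without these 2 libraries are given beside the regional, strain and conditioning results before extinction. In tissue RNA, fewer cells of a type and less RNA per cell cannot be told apart.

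Per length, the peptide and receptor genes spanned several orders of magnitude, and the order differed between the regions. In BLA, Cck had a median of 557 FPKM (fragments scaled to transcript length and library size, n = 6), Adcyap1r1 32.6, Cckbr 24.4, Vip 20.3, Grp 11.3, Vipr1 6.1, Adcyap1 2.77, Vipr2 0.364 and Grpr 0.208 FPKM. The ranges of neighbours overlapped there for Cckbr and Vip, for Vip and Grp, and for Vipr2 and Grpr. In CeA, the receptor gene Adcyap1r1 was first at 45 FPKM, before Cck at 27.5, Cckbr at 8.39, Vipr2 at 4.7, Vipr1 at 3.87, Vip at 2.11, Grp at 1.12, Adcyap1 at 0.12 and Grpr at 0.0757 FPKM. All neighbours in that order overlapped over the 6 libraries except Cck and Cckbr.

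**Figure D1:**
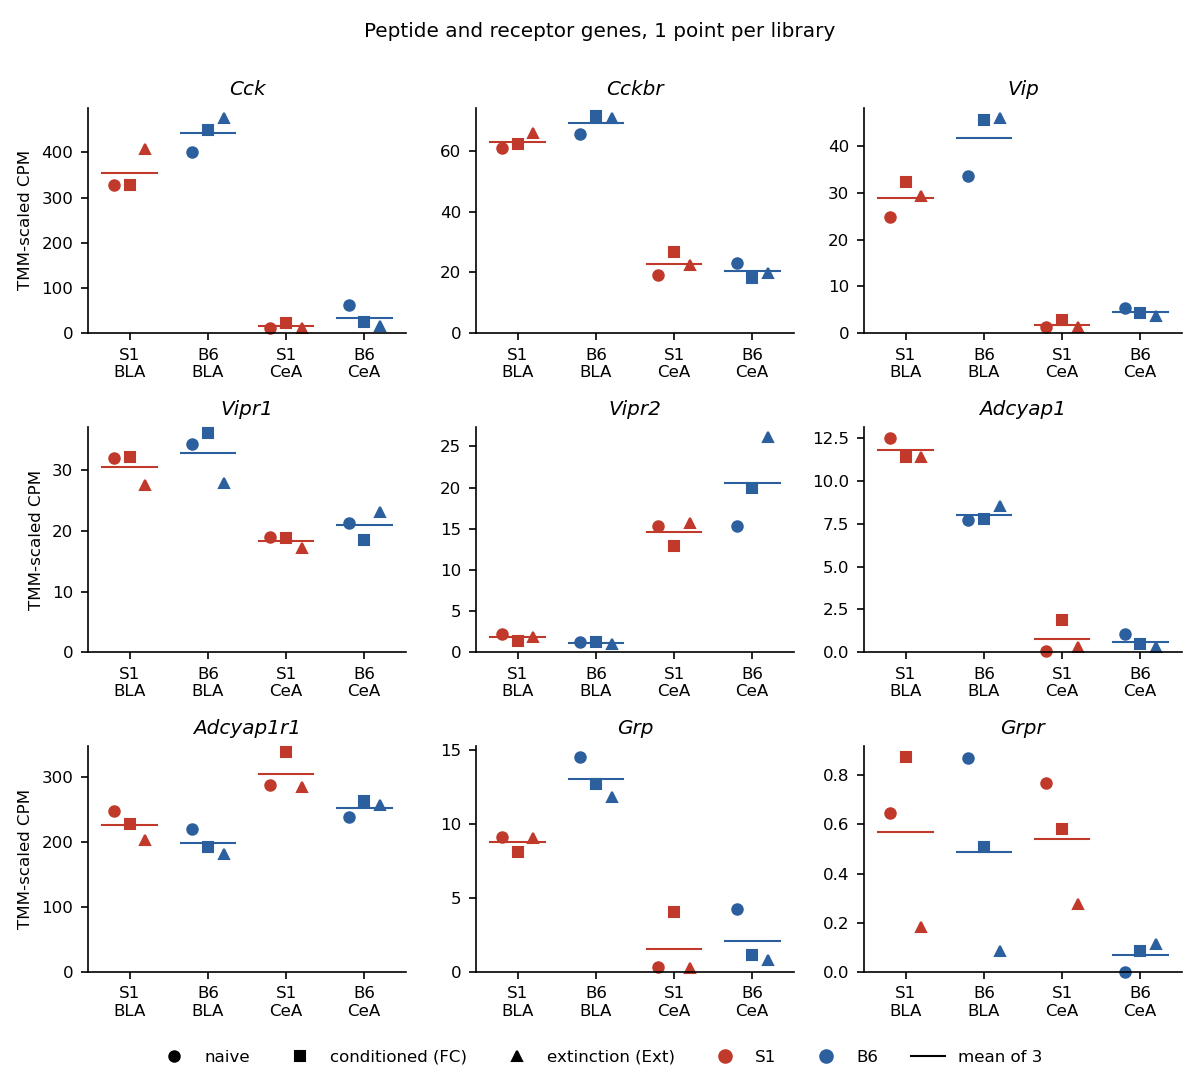
TMM-scaled CPM of the 9 genes (vertical axes, each starting at 0) in the 12 libraries, with 1 point per library, the marker shape giving the condition and the line the mean of 3 libraries. Cck, Cckbr, Vip, Vipr1, Adcyap1 and Grp stood higher in both BLA groups, Vipr2 and Adcyap1r1 in both CeA groups, and Grpr stayed below 1 CPM.

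Between the regions, 6 of the 9 genes were higher in BLA and 2 lower before extinction, from 1.27-fold for Adcyap1r1 to 13.9-fold for Cck. All 4 peptide genes and the receptor genes Cckbr and Vipr1 were on the BLA side, and the receptor genes Vipr2 and Adcyap1r1 were on the CeA side. These are calls of edgeR's quasi-likelihood test in the 8 naive and conditioned libraries at an adjusted p of 0.05. Among all 16274 genes tested, 23.2% were higher in BLA and 23.4% lower. The median log2 fold change of the 9 genes was 1.58, against -0.01 over all genes.

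Cck (mm10 chr9:121489824-121495694, Gene_ID 12424) had 327, 328 and 407 CPM in naive, FC and Ext BLA of S1, against 10.9, 22.3 and 10.2 CPM in S1 CeA. In B6 it had 402, 450 and 476 CPM in BLA, against 61, 25.1 and 15.8 CPM in CeA. Every BLA library lay above every CeA library, and the highest CeA value was that of naive B6 mice. The fitted log2 fold change of BLA over CeA was 3.80 ± 0.37 (SE; adjusted p = 8e-05, higher in 4 of 4 matched pairs). Without the 2 CeA libraries with most excitatory markers it was 4.48 ± 0.17. Its receptor gene Cckbr (chr7:105425731-105436339, Gene_ID 12426) had 61.1 to 71.7 CPM in BLA and 18.2 to 26.8 CPM in CeA over 6 libraries each. The regions did not overlap, and Cckbr was 2.98-fold higher in BLA (log2 1.58 ± 0.13 SE, adjusted p = 3.2e-05).

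Vip (chr10:5639218-5647616, Gene_ID 22353) had 24.9, 32.3 and 29.3 CPM in naive, FC and Ext BLA of S1, against 1.26, 2.84 and 1.26 CPM in S1 CeA. In B6 it had 33.7, 45.5 and 46 CPM in BLA, against 5.46, 4.2 and 3.59 CPM in CeA. The regions did not overlap, and Vip was 10.3-fold higher in BLA (log2 3.37 ± 0.24 SE, adjusted p = 1.7e-05). Other markers of VIP interneurons moved with it: 5 of the 6 listed were higher in BLA, and their summed level was 64.5 to 102 CPM in BLA against 24 to 35.3 CPM in CeA. Their part in the result was not tested.

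The genes of the VIP receptors went opposite ways. Vipr1 (chr9:121642716-121672954, Gene_ID 22354) had 27.5 to 36.1 CPM in BLA, against 17.1 to 23.1 CPM in CeA, and was 1.73-fold higher in BLA (log2 0.79 ± 0.07 SE, adjusted p = 4e-05). Vipr2 (chr12:116077726-116146261, Gene_ID 22355) had 2.24, 1.38 and 1.82 CPM in naive, FC and Ext BLA of S1, against 15.3, 12.9 and 15.7 CPM in S1 CeA. In B6 it had 1.25, 1.25 and 0.979 CPM in BLA, against 15.4, 20 and 26.1 CPM in CeA. The highest BLA value lay far below the lowest CeA value, and the fitted log2 fold change of BLA over CeA was -3.39 ± 0.23 (SE, adjusted p = 1.2e-05). The annotation places an antisense gene, Gm20658, over Vipr2, and whether counting used strand is not given in the sources used here, so its counts are uncertain to that extent.

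Adcyap1 (chr17:93199017-93206537, Gene_ID 11516), the PACAP gene, had 12.5, 11.4 and 11.4 CPM in naive, FC and Ext BLA of S1, against 0.0699, 1.9 and 0.293 CPM in S1 CeA. In B6 it had 7.68, 7.78 and 8.52 CPM in BLA, against 1.05, 0.507 and 0.288 CPM in CeA. The BLA values varied little within a strain and the CeA values 27.2-fold, the lowest of them resting on 3 counts. Adcyap1 was 10.9-fold higher in BLA (log2 3.45 ± 0.53 SE, adjusted p = 0.0011), and 32.1-fold higher without the 2 CeA libraries with most excitatory markers.

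Adcyap1r1 (chr6:55451978-55501455, Gene_ID 11517), the PACAP receptor gene, had the highest FPKM of the receptor genes in both regions. It had 248, 228 and 204 CPM in naive, FC and Ext BLA of S1, against 289, 340 and 285 CPM in S1 CeA. In B6 it had 220, 193 and 182 CPM in BLA, against 239, 263 and 258 CPM in CeA. BLA was lower than CeA in all 4 matched pairs, but the pooled ranges overlapped, since naive S1 BLA exceeded naive B6 CeA. It fell by 0.34 ± 0.08 in BLA relative to CeA on the log2 scale (SE, adjusted p = 0.0085). In the B6 libraries alone the value was -0.28 ± 0.13 and no longer passed (adjusted p = 0.13).

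Grp (chr18:65873486-65886596, Gene_ID 225642) had 9.12, 8.08 and 9.05 CPM in naive, FC and Ext BLA of S1, against 0.326, 4.03 and 0.224 CPM in S1 CeA. In B6 it had 14.5, 12.7 and 11.8 CPM in BLA, against 4.21, 1.16 and 0.788 CPM in CeA. The regions did not overlap, and the CeA libraries with most Grp, S1 FC and B6 naive, were also those with most excitatory markers. The fitted log2 fold change was 2.15 ± 0.57 (SE, adjusted p = 0.016), and 3.95 without those 2 libraries. In the S1 libraries alone it was 2.34 ± 0.74 and just missed the threshold (adjusted p = 0.051). An antisense gene, AC152076.4, overlaps Grp, with the same uncertainty of strand. Grpr (chrX:163513904-163549736, Gene_ID 14829) had 0 to 46 counts per library. Its level was 0.0859 to 0.874 CPM in BLA and 0 to 0.769 CPM in CeA, so the regions overlapped, and the difference did not pass (log2 1.48 ± 0.78 SE, adjusted p = 0.15). DESeq2 called it higher in BLA (adjusted p = 0.04), as did edgeR in the B6 libraries alone (adjusted p = 0.012), where naive CeA had 0 counts.

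**Figure D2:**
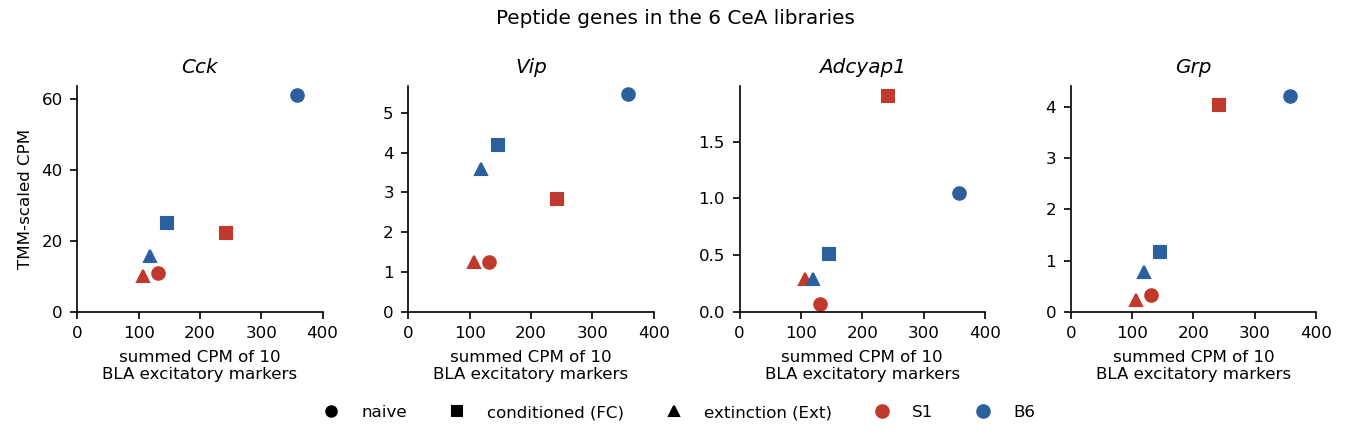
TMM-scaled CPM of 4 peptide genes (vertical axes) against the summed CPM of 10 BLA excitatory markers (horizontal axes) in the 6 CeA libraries, red for S1 and blue for B6. The S1 FC and B6 naive libraries, at 242 and 358 CPM of markers, held the 2 highest values of Adcyap1 (1.9 and 1.05 CPM) and of Grp (4.03 and 4.21 CPM), while Vip was lowest in S1 naive and Ext.

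Within CeA, the 2 libraries with most excitatory markers had the 2 highest values of Adcyap1 and of Grp, and the B6 naive library also had the most Cck and Vip. Cck and Vip did not follow the markers in every library. The S1 FC library had 242 CPM of markers, 22.3 CPM of Cck and 2.84 CPM of Vip, against 146 CPM of markers, 25.1 CPM of Cck and 4.2 CPM of Vip in the B6 FC library. Without both libraries, the same 6 genes were higher and the same 2 lower in BLA, in a fit chosen after seeing the data. The log2 fold changes of the genes not yet given were then 3.78 for Vip, 1.81 for Cckbr, 0.85 for Vipr1, -3.55 for Vipr2 and -0.31 for Adcyap1r1, and Grpr (1.14, adjusted p = 0.2) did not pass. The part of the markers in these values was not tested further. In fits without 1 library, each of the 8 calls between regions held in 8 of 8 fits.

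After extinction, the same 6 genes were higher in BLA and the same 2 lower, in a fit of the 4 extinction libraries alone. Among 15996 genes tested there, 18.8% were higher and 17.5% lower. The log2 fold changes were 5.13 ± 0.12 for Cck, 4.07 ± 0.22 for Vip, 5.10 ± 0.21 for Adcyap1 and 4.48 ± 0.35 for Grp. The receptor genes had 1.71 ± 0.10 for Cckbr, 0.49 ± 0.12 for Vipr1, -3.85 ± 0.40 for Vipr2 and -0.48 ± 0.06 for Adcyap1r1, and Vipr1 was nearest to the threshold (adjusted p = 0.037). Grpr had 0.182 and 0.0859 CPM in S1 and B6 BLA, against 0.276 and 0.115 CPM in S1 and B6 CeA, and did not pass (log2 -0.51 ± 0.65, adjusted p = 0.58). The peptide genes had larger values than before extinction, but the change of the regional difference, tested over 12 libraries, passed for none of the 9 genes, and 0.0121% of genes passed. At an unadjusted p of 0.05, 2 members stood out, Cck at 1.31 ± 0.56 and Vipr1 at -0.32 ± 0.14 (both with adjusted p = 0.48), and DESeq2 called 0 members.

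**Figure D3:**
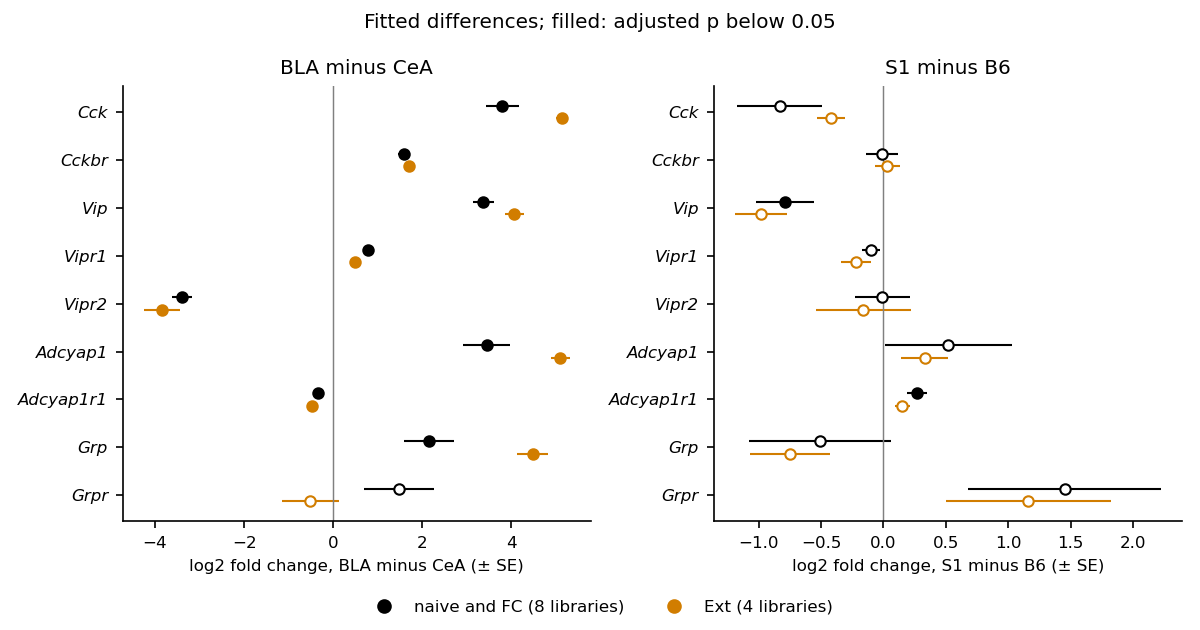
Log2 fold changes with SE (horizontal axes) of BLA over CeA and of S1 over B6 for the 9 genes, from the 8 naive and FC libraries (black) and the 4 Ext libraries (orange), with filled points past an adjusted p of 0.05. Cck, Vip, Adcyap1 and Grp lay between 2.15 and 5.13 on the regional axis, and in the strain panel Vip (-0.79) and Adcyap1r1 (0.27) were the filled points.

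Between the strains, 1 of the 9 genes was lower in S1, Vip, and 1 was higher, Adcyap1r1. Vip fell by 0.79 ± 0.23 on the log2 scale in S1 relative to B6 (SE, adjusted p = 0.042, lower in 4 of 4 matched pairs). The PACAP receptor gene Adcyap1r1 was 1.2-fold higher in S1 (log2 0.27 ± 0.08 SE, adjusted p = 0.046, higher in 4 of 4 pairs). Among all genes, 10.4% were lower in S1 and 12.4% higher, so a count of 1 in each direction is near the background. Vip passed in 2 of 8 fits that left out 1 library, without naive B6 BLA (adjusted p = 0.029) and without naive B6 CeA (adjusted p = 0.049). In the other fits its log2 fold change was -0.59 to -0.91 with an adjusted p of 0.055 to 0.1. Adcyap1r1 passed in 1 of 8, without naive B6 BLA (adjusted p = 0.011), and the other 7 gave 0.18 to 0.32 with an adjusted p of 0.05 (rounded, not past the threshold) to 0.16. With a block for each pair of libraries that differ in strain alone, Vip did not pass (-0.78 ± 0.24, adjusted p = 0.058) and Adcyap1r1 did (0.27 ± 0.05, adjusted p = 0.015). Neither call held without the filter on low counts (adjusted p = 0.057 for Vip and 0.06 for Adcyap1r1). With the trend of fold change on transcript length removed, Vip was at -0.66 (adjusted p = 0.083) and Adcyap1r1 at 0.09 (adjusted p = 0.29).

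In the BLA, the S1 libraries had less Vip than the B6 libraries in every condition, with S1 at 24.9 to 32.3 CPM and B6 at 33.7 to 46 CPM, so the strains did not overlap. The summed other VIP interneuron markers did overlap in BLA, at 64.5 to 102 CPM in S1 and 76.5 to 91.1 CPM in B6. Of these 6 markers, Htr3a, the serotonin receptor subunit found in VIP interneurons, was the one that passed between strains. Htr3a had 5.45, 6.25 and 6.07 CPM in naive, FC and Ext BLA of S1, against 14.3, 15.3 and 15.9 CPM in B6 BLA, and fell by 1.45 ± 0.22 on the log2 scale (adjusted p = 0.0043). Its part in the Vip result was not tested.

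In fits of the BLA libraries alone, all 4 peptide genes differed between the strains. The fit of the 4 naive and FC libraries called 3 genes lower in S1 and 1 higher, where 4.8% of genes were lower and 3.48% higher. Grp had 8.08 to 9.12 CPM in S1 BLA and 11.8 to 14.5 CPM in B6 BLA, with no overlap, and its log2 fold change was -0.68 ± 0.11 (adjusted p = 0.0089). Vip gave -0.48 ± 0.10 (adjusted p = 0.022) and Cck -0.39 ± 0.09 (adjusted p = 0.036). Cck had 327 to 407 CPM in S1 BLA and 402 to 476 CPM in B6 BLA, where S1 Ext lay just above naive B6. Adcyap1 went the other way, with 11.4 to 12.5 CPM in S1 BLA against 7.68 to 8.52 CPM in B6 BLA, and 0.61 ± 0.12 on the log2 scale (adjusted p = 0.019). That fit has 1 residual degree of freedom. A fit of the 6 BLA libraries, chosen after seeing the data, gave the same 4 genes, at -0.58 ± 0.09 for Grp, -0.54 ± 0.08 for Vip, -0.34 ± 0.06 for Cck and 0.54 ± 0.09 for Adcyap1 (adjusted p of 0.0033 to 0.013). In it, 7.42% of genes were lower in S1 and 6.59% higher. BLA excitatory markers summed to 2661 to 2919 CPM in S1 and to 2559 to 2691 CPM in B6. In edgeR's fit of the 8 libraries 0 of the 10 passed between strains, but neither did Cck, Grp and Adcyap1. Most of the sum was the marker Slc17a7, at 1904 to 1996 CPM in S1 BLA and 1733 to 1866 CPM in B6 BLA. The markers Rspo2 (45.6 to 58.6 against 68 to 75 CPM) and Neurod2 (69.6 to 78.6 against 79.9 to 91.7 CPM) were lower in S1 BLA. The other listed excitatory markers overlapped between the strains in BLA. Among them were Fezf2 (47.5 to 53.9 CPM in S1 against 44.4 to 50.2 CPM in B6) and Mef2c (277 to 383 against 295 to 336 CPM). The part of these markers in the peptide results was not tested. Markers of the neighbouring claustrum and endopiriform nucleus summed to 282 to 306 CPM in S1 BLA and to 358 to 361 CPM in B6 BLA, with no overlap. Of these 6 markers, 3 were lower in S1 and 0 higher in the fit of 8 libraries, and their part in the Grp, Vip and Cck results was not tested. Striatal markers summed to 553 to 923 CPM in S1 BLA and to 494 to 538 CPM in B6 BLA, also without overlap. In the fit of 8 libraries 0 of these 10 passed between strains, and their part was not tested either. Cckbr, at 61.1 to 66.1 CPM in S1 BLA and 65.6 to 71.7 CPM in B6 BLA, did not pass (adjusted p = 0.27 in the fit of 4 libraries).

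In the CeA, Cck and Vip were lower in S1 in all 3 conditions, while Grp and Adcyap1 changed sides between the naive and the FC pair. Cck had 10.9, 22.3 and 10.2 CPM in S1 CeA, against 61, 25.1 and 15.8 CPM in B6 CeA, and the pairs of naive mice differed most. Grp was lower in S1 in the naive pair (0.326 against 4.21 CPM) and higher in S1 in the FC pair (4.03 against 1.16 CPM), and Adcyap1 changed sides in the same way (0.0699 against 1.05 CPM, then 1.9 against 0.507 CPM). In the fit of all 8 libraries, none of Cck (log2 -0.83 ± 0.34, adjusted p = 0.11), Grp (-0.51 ± 0.57, adjusted p = 0.55) and Adcyap1 (0.52 ± 0.51, adjusted p = 0.49) passed. Without the S1 FC and B6 naive CeA libraries, a set chosen after seeing the data, Grp (-0.84 ± 0.20, adjusted p = 0.043), Vip (-0.62 ± 0.14, adjusted p = 0.038) and Cck (-0.56 ± 0.13, adjusted p = 0.043) were lower in S1, and 0 members were higher. The share of all genes that passed in this fit is not given here, so these calls have no background beside them. Adcyap1 then gave 0.37 ± 0.34 (adjusted p = 0.54), and Adcyap1r1 fell short of the threshold at 0.14 ± 0.07 (adjusted p = 0.24).

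Of the receptor genes, Adcyap1r1 had 285 to 340 CPM in S1 CeA and 239 to 263 CPM in B6 CeA, with no overlap. The fit of the 4 naive and FC CeA libraries gave 0.32 ± 0.06 on the log2 scale (adjusted p = 0.014), and in it 14% of genes were higher in S1 and 12.1% lower. In that fit, Grpr was the other of 2 genes higher in S1, and 0 were lower. Grpr had 33, 31 and 16 counts in naive, FC and Ext CeA of S1, against 0, 4 and 6 counts in B6 CeA. The strains did not overlap in CeA, but they did in BLA, at 28, 40 and 11 counts in S1 and 46, 28 and 5 counts in B6. The fitted CeA value (adjusted p = 0.035) depends on how a count of 0 is treated, and in the fit of 6 CeA libraries Grpr did not pass (adjusted p = 0.099). In that fit of 6, 1 member was lower in S1, Vip at -1.37 ± 0.30 (adjusted p = 0.039), and 0 were higher, where 4.62% of genes were lower and 2.97% higher. Vipr2 had 12.9 to 15.7 CPM in S1 CeA and 15.4 to 26.1 CPM in B6 CeA, ranges that overlapped, and in BLA it had 1.38 to 2.24 CPM in S1 and 0.979 to 1.25 CPM in B6, ranges that did not. It passed in neither region (adjusted p = 0.18 in CeA and 0.39 in BLA, 4 libraries each).

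Whether the strain difference itself varied between regions was tested by an interaction. In edgeR's fit it passed for 0 of the 9 genes, and 0.0307% of all genes passed. At an unadjusted p of 0.05, 2 members stood out, Vipr2 (log2 0.86 ± 0.34, adjusted p = 0.56) and Grpr (-3.80 ± 1.14, adjusted p = 0.52), and DESeq2 called 0. Vip, with 0.81 ± 0.39, had an adjusted p of 0.6.

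After extinction, 0 of the 9 genes passed between strains in edgeR's fit of 4 libraries, where 1.64% of genes passed. At an unadjusted p of 0.05 there were 2, Vip (log2 -0.98 ± 0.21, adjusted p = 0.14) and Cck (-0.42 ± 0.11, adjusted p = 0.19), and both were lower in S1 in 2 of 2 pairs. DESeq2 called these 2 among 600 genes, with an adjusted p of 0.0027 for Vip and 0.026 for Cck. Adcyap1r1, at 204 and 285 CPM in S1 BLA and CeA against 182 and 258 CPM in B6 BLA and CeA, gave 0.15 ± 0.06 (adjusted p = 0.34). The change of the strain difference after extinction passed for 0 members and 0% of genes in edgeR's fit over 12 libraries. There, 0 members stood at an unadjusted p of 0.05, and DESeq2 called 0 members and 34 genes.

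Fear conditioning changed 0 of the 9 genes in edgeR's fit, as it did 0% of all genes. None of the 9 had an unadjusted p of 0.05 or less, and DESeq2 called 0 members and 21 genes. Without the S1 FC and B6 naive CeA libraries, 0 members passed as well (adjusted p of 0.98 to 1). Vip had the largest fitted value of the 9, 0.30 ± 0.23 on the log2 scale (adjusted p = 1), and was higher in FC than in naive mice in 3 of 4 pairs. In S1 BLA it had 32.3 CPM in FC and 24.9 CPM in naive mice, and in B6 BLA 45.5 CPM in FC and 33.7 CPM in naive mice. The BLA pairs of Adcyap1r1 were lower in FC and its CeA pairs higher, and the interaction of region with conditioning, at -0.35 ± 0.10 (unadjusted p = 0.011), had an adjusted p of 0.74. That interaction passed for 0 members, with 1 at an unadjusted p of 0.05, and for 0.0184% of genes, and the interaction of strain with conditioning for 0 members and 0% of genes, with 0 members at an unadjusted p of 0.05. DESeq2 called 0 members in both. Grp and Adcyap1 in CeA were higher in FC than in naive S1 mice (4.03 against 0.326 CPM and 1.9 against 0.0699 CPM) and lower in FC than in naive B6 mice (1.16 against 4.21 CPM and 0.507 against 1.05 CPM). The summed excitatory markers moved the same way, at 242 CPM in FC against 131 CPM in naive S1 CeA, and 146 CPM in FC against 358 CPM in naive B6 CeA. The fitted interaction of strain with conditioning was 2.03 ± 1.02 for Grp and 1.25 ± 1.02 for Adcyap1 (adjusted p = 1 for both).

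The cassette exon shown above was counted in 38.6% to 56.8% of the PACAP receptor RNA. The exon-bearing transcript NM_007407 took 53.1%, 46.2% and 45.9% of Adcyap1r1 counts in naive, FC and Ext BLA of S1, against 53.4%, 48.6% and 49.6% in S1 CeA. In B6 it took 38.6%, 56.8% and 48.5% in BLA, against 49.3%, 45.4% and 42% in CeA. The lowest and the highest of the 12 shares were both B6 BLA libraries, naive and FC, and the groups overlapped. The 95% Wilson intervals, which cover counting error only, were 37.8% to 39.5% and 55.8% to 57.7% for these 2 libraries. Each share is the split that the authors' software made between overlapping transcripts, an error that the intervals leave out, and no test was made.

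**Figure D4:**
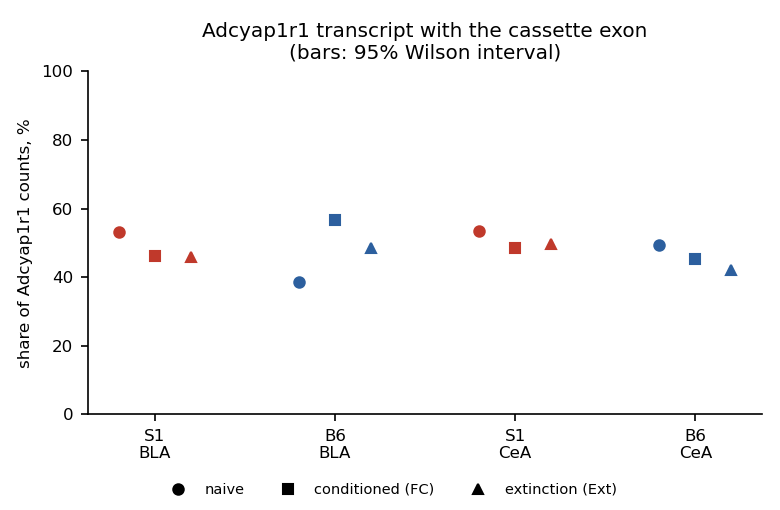
Share of Adcyap1r1 counts assigned to the transcript with the cassette exon (vertical axis, in %) in the 12 libraries, with bars for the 95% Wilson interval of counting. All shares lay between 38.6% and 56.8%, with both ends in B6 BLA.

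Of the other members with several transcripts, Cck and Adcyap1 were mostly counted in 1 form, and Vip was not. The second Cck transcript took 0% to 3.7% of counts, and the main Adcyap1 transcript 91.5% to 100%. The Adcyap1 transcript NM_001315504 had 42 of 540 counts in naive S1 BLA and 26 of 690 in Ext S1 BLA, and 0 in the other 10 libraries, FC S1 BLA with 520 counts included. Of Vip, the second transcript NM_001313969 took 23.2% to 53.5%, the highest in Ext B6 CeA with 100 of 187 counts. In BLA, it took 24% to 35.4% in S1 and 26.6% to 31.2% in B6, ranges that overlapped. The Vip transcripts have 1526 and 1529 bases, and their split was likewise made by the authors' software, with an error that is not known here.

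Related ligands and receptors of the same families were lower in BLA where they passed. Of 13 listed genes, 9 were tested, 0 were higher in BLA and 4 lower, with a median log2 fold change of -1.24 against -0.01 for all genes. Among all genes, 23.2% were higher and 23.4% lower in BLA. Brs3, an orphan receptor of the bombesin family to which the GRP receptor belongs, gave -5.53 ± 0.41 (adjusted p = 1.9e-05). Nmb, which encodes the GRP relative neuromedin B, gave -2.17 ± 0.17 (adjusted p = 2.9e-05), so that it lay on the CeA side while Grp lay on the BLA side. Gast, the gene of the CCK relative gastrin, gave -2.96 ± 0.57, and Ghrh, the gene of growth hormone-releasing hormone from the VIP and PACAP family, gave -2.93 ± 0.62. These levels were low, for Gast 0 to 0.172 CPM in BLA and 0.35 to 1.13 CPM in CeA. Ghrh had 0 to 0.258 CPM in BLA and 0.64 to 1.12 CPM in CeA, and Brs3 had 0 to 0.182 CPM in BLA and 1.92 to 4.31 CPM in CeA. Cckar, the other CCK receptor gene, did not pass (-0.56 ± 0.68, adjusted p = 0.54). Between strains 1 of the 9 was higher in S1 and 0 lower: Glp1r, the receptor of glucagon-like peptide, at 2.63 ± 0.57 (adjusted p = 0.017). Glp1r had 1.82, 3.05 and 2.83 CPM in naive, FC and Ext CeA of S1, against 0.198, 0.19 and 1.33 CPM in B6 CeA, without overlap. Among all genes, 12.4% were higher and 10.4% lower in S1. After extinction 4 were again lower in BLA, where 17.5% of all genes were lower, and 0 differed between strains.

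Of 16 genes that process, sort or release peptides, 7 were higher and 5 lower in BLA, against 23.2% and 23.4% of all genes. The prohormone convertase genes Pcsk1 and Pcsk2, whose products cut these precursors, gave 2.35 ± 0.17 (adjusted p = 1.7e-05) and 1.67 ± 0.08 (adjusted p = 3.5e-06). Cadps and Cadps2, which prime dense-core vesicles for release, gave 0.98 ± 0.06 and 2.39 ± 0.20, while the granin gene Scg2 gave -1.59 ± 0.14. Pam, whose product makes the amidated ends that CCK, VIP, PACAP and GRP carry, was lower in BLA at -0.22 ± 0.05 (adjusted p = 0.0065). Between strains 0 were higher and 2 were lower in S1, Cpe, a carboxypeptidase that trims cut precursors, at -0.34 ± 0.07 (adjusted p = 0.017) and the granin gene Scg3 at -0.23 ± 0.05 (adjusted p = 0.016). Of all genes, 12.4% were higher and 10.4% lower in S1. The list's median between regions was -0.01, as for all genes.

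Downstream of the VIP and PACAP receptors, 15 genes of the Gs and cyclic AMP arm were tested, of which 5 were higher and 4 lower in BLA. For both arms the shares over all genes were 23.2% higher and 23.4% lower in BLA, and 12.4% higher and 10.4% lower in S1. Gnal, the Gs-like subunit typical of striatum, gave -1.59 ± 0.07 (adjusted p = 2.1e-06), and Rapgef4, a cyclic AMP sensor, gave 0.87 ± 0.07 (adjusted p = 2.3e-05). Between strains 3 were higher in S1 and 0 lower, all subunits of protein kinase A: Prkaca at 0.25 ± 0.05, Prkar2a at 0.29 ± 0.07 and Prkacb at 0.18 ± 0.05 (adjusted p of 0.0078, 0.025 and 0.037). Downstream of the CCK and GRP receptors, 15 genes of the Gq and calcium arm split into 4 higher and 4 lower in BLA, led by Rasgrp1 at 1.25 ± 0.07 and Rgs2 at -1.17 ± 0.12. Between strains 5 of these 15 were higher in S1 and 0 lower, against 12.4% and 10.4% of all genes. They were Itpr1, a calcium release channel of the endoplasmic reticulum, at 0.38 ± 0.06 (adjusted p = 0.0059), Plcb1 and Plcb4, phospholipases C, at 0.30 ± 0.05 and 0.47 ± 0.11, the Gq subunit Gnaq at 0.29 ± 0.06, and the cation channel Trpc5 at 0.36 ± 0.08. With the trend of fold change on transcript length removed, 1 gene of the Gq list was higher and 1 lower. Conditioning changed 0 genes of the 4 lists, and 0 passed between strains after extinction.

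Over the 12 libraries, the genes whose log2 CPM was most like each member's were found among 13263 genes by Pearson's r, given as a description, since the libraries share their region. For Cck they were Rtn4r (0.997), Bmp2 (0.996) and Tbr1 (0.995), and Rtn4r was also first for Vip (0.992). Smoc2 was first for Cckbr (0.996), Nkd2 for Vipr1 (0.983), Agtr2 for Vipr2 (0.995), Slc17a6 for Adcyap1 (0.991), Dnah2 for Adcyap1r1 (0.984) and Nrn1 for Grp (0.971). Grpr lay under the minimum level for this. Among the members, Cck and Vip had r = 0.99 over 12 libraries, 0.83 over the 6 of BLA and 0.88 over the 6 of CeA. Grp and Adcyap1 had 0.94 over 12 libraries, -0.94 within BLA, where S1 and B6 stood apart in opposite directions for these genes, and 0.92 within CeA.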

How the data were processed

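The authors deposited read counts per transcript and per gene, not normalized, and FPKM values scaled for transcript length and library size, per the file headers, in mm10 coordinates. Transcript length in bases stands beside them in the deposited tables. The library kit was TruSeq Stranded mRNA LT (per the labels' protocols), and StringTie is named in the submitters' processing notes. For the aligner and software versions the sources used here give nothing. The naive and FC libraries were deposited in 1 table and the Ext libraries in another, so Ext was not compared directly with the other conditions. One gene-level column (1 per-sample count column in all) could be matched to no sample, and gene counts were therefore summed from 36779 transcripts. For the 9 genes the sums matched the gene-level counts exactly in the 11 columns that could be compared.

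The count test was edgeR 4.0.16 under R 4.3.3 (quasi-likelihood F test, TMM scaling, filterByExpr, Benjamini-Hochberg adjustment over all genes tested, threshold 0.05). Strain, region and condition were additive terms over 8 libraries (4 residual degrees of freedom), and interactions left 3. The Ext fit had 1, and the change of a difference after extinction, over 12 libraries, had 5. CPM are TMM-scaled over 12 libraries, and an SE is the size of the log2 fold change over the square root of F. Alternatives were DESeq2 1.42.0, limma 3.58.1 on log2(FPKM + 1) or log2(FPKM + 0.1), other scaling and filters, a loess correction for transcript length, a block for each matched pair (3 residual degrees of freedom), and subsets of libraries. The edgeR steps were tested on simulated data.

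The 9 genes are named throughout. From each of the 4 pathway lists, the genes with the lowest p-values per comparison were named, with Cckar, Pam and further genes that passed between strains named after their values were seen. Lists of markers covered 12 cell types or regions. The 9 genes and all lists were chosen with earlier results of these data known. Sequences came from RefSeq (promoters) and GENCODE M21 (exon).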

Additional observations from a re-analysis of the deposited data

How the results depend on the processing

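No paired analysis was possible because replicate number 1 stands on every label and none ties libraries to the same mice. A block for each pair of libraries that differ in 1 term alone, added after seeing the data, gave 6 members higher and 2 lower in BLA, 1 higher and 0 lower in S1, and 0 changed by conditioning. Between regions, other alternatives moved the counts by 1: DESeq2 gave 7 higher (Grpr added), S1 libraries alone 5 higher (Grp lost), and B6 libraries alone 7 higher (Grpr added) and 1 lower (Adcyap1r1 lost). Between strains, 0 members were higher in S1 without a filter on low counts, with limma on log2(FPKM + 1), on log2(FPKM + 0.1) and on log2(FPKM + 1) without a filter, with the length trend removed, in the 6 CeA libraries, and without the 2 CeA libraries with most excitatory markers, while CeA libraries alone gave 2. None (0) were lower in S1 without a filter, with the length trend removed and in CeA libraries alone, and 3 were lower in BLA libraries alone, in the 6 BLA libraries and without the 2 CeA libraries. Over all genes, 4.8% were lower in BLA libraries alone and 7.42% in the 6 BLA libraries, and 14% were higher in CeA libraries alone. The share without the 2 CeA libraries is not given, so that count has no background beside it. Leaving out each library in turn gave 0 to 1 higher and 0 to 1 lower. With the length trend removed, Vip gave -0.66 (adjusted p = 0.083) and Adcyap1r1 0.09 (adjusted p = 0.29); the cause was not tested. After extinction, DESeq2 called 2 members lower in S1 and limma on log2(FPKM + 1) called 1. A fit of all 12 libraries, with 1 strain term shared by the 3 conditions, gave 1 higher and 1 lower. That term is not a strain difference after extinction. The fits of 6 libraries of a region and the one without 2 CeA libraries were chosen after seeing the data. On log2(FPKM + 0.1) the median regional change of all genes shifted by -0.10, and no member called between regions changed sign in any alternative. Of 914 values of members, 818 were counted as unchanged, 32 no longer passed, 16 newly passed and 48 without a test moved. A value that changed sign but passed in neither fit was counted as unchanged. Vipr2 between strains is an example, at -0.01 in the main fit and -0.47 to 0.62 in the alternatives. Leaving 1 Ext library out leaves no residual degree of freedom, so those are values without a test. Low counts limit Grpr, and Adcyap1 and Grp in CeA, and among the related genes Gast, Ghrh and, in BLA, Brs3.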

Other observations

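Marker RNA of several other cell types differed between these libraries, which does not tell fewer cells from less RNA per cell. All 5 oligodendrocyte markers were lower in S1 than in B6 before extinction, among them the myelin gene Mbp (log2 -0.69 ± 0.11, adjusted p = 0.005), and all 5 were higher in BLA than in CeA. Of 5 astrocyte markers 4 were lower in S1, with the intermediate filament gene Gfap at -1.68 ± 0.17 (adjusted p = 0.00066). Of 5 microglia markers 4 were lower in S1, with the complement genes C1qb at -0.98 ± 0.07 and C1qa at -0.93 ± 0.10, and 1 of 4 endothelial markers was lower, Cldn5 at -0.75 ± 0.13. Among markers of claustrum and endopiriform cortex, 3 of 6 were lower in S1 and 0 higher, and of 4 markers of choroid plexus and ependyma 0 passed between strains. The shares over all genes were 10.4% lower and 12.4% higher in S1, and 23.2% higher and 23.4% lower in BLA. After extinction, 0 oligodendrocyte, 1 astrocyte and 2 microglia markers were lower in S1, where 1% of genes were lower.

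Of 6 markers of CCK basket cells 5 were higher and 1 lower in BLA, and 1 was higher in S1, the cannabinoid receptor gene Cnr1 at 0.28 ± 0.07 (adjusted p = 0.022). Their summed level was 444 to 556 CPM in S1 BLA and 436 to 486 CPM in B6 BLA, ranges that overlapped. Of 6 markers of other interneurons 3 were higher and 3 lower in BLA. The CeA list had 1 gene lower in S1, Crh, the gene of corticotropin-releasing hormone, at -0.74 ± 0.15 (adjusted p = 0.014), and the striatal list had 0 in either direction. Conditioning changed 0 genes of these 12 lists.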
